A study of Homo sapiens with 4 samples.

Results

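The 7SK RNA (RN7SK) and 9 protein-coding genes whose products work with it, or with the kinase it holds in check, were examined in the fibrosarcoma line HT1080 with a KDAC8 knockout. The 10 genes were found by symbol among 60675 gene rows, and each symbol matched 1 row. RN7SK was picked for its high counts and its spread in these libraries, so its values are given as a description without a test. The partners (LARP7, MEPCE, HEXIM1, HEXIM2, CDK9, CCNT1, CCNT2, AFF4 and ELL2) were picked by their known functions, with earlier results of these data known.

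RN7SK is a small nuclear RNA made by RNA polymerase III. MEPCE caps its 5′ end and LARP7 binds its 3′ end, and the RNA then carries dimers of HEXIM1 or HEXIM2. In this particle the HEXIM proteins inhibit P-TEFb, the kinase formed by CDK9 with cyclin T1 (CCNT1) or cyclin T2 (CCNT2). Once released, P-TEFb phosphorylates the pausing factors NELF and DSIF and the tail of RNA polymerase II, which lets paused polymerases elongate. AFF4 is a scaffold that joins P-TEFb to the elongation factor ELL2 in the super elongation complex.

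HT1080 is a human line established from a connective tissue tumour. All 4 libraries belong to 1 group, the KDAC8 knockout grown in serum-containing medium with no stated treatment, and no parental library was analysed here, so no effect of the knockout can be given. The deleted enzyme, a lysine deacetylase, is the product of HDAC8, whose row held 80, 89, 95 and 107 counts in replicates 1 to 4. These counts take in the entire gene and so are no check of the deletion. Whether the line is 1 clone, and whether replicates are separate cultures, is not given in the sources used here, so a p-value here speaks of the spread among these 4 libraries alone, and that spread may be technical. Ribosomal RNA had been depleted from total RNA, and library totals ran from 39454210 to 45828807 counts. Of 6 mesenchymal markers 5 were detected, all but THY1 (mean 0.175 CPM). Of 4 epithelial markers 3 were at 0 in every library, while CLDN4 was detected at 1.90 to 2.90 CPM. No haematopoietic or endothelial marker reached 1 CPM in all 4 libraries.

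The opening bases of the 7SK RNA are shown because HEXIM proteins recognise a 5′ hairpin that holds GATC repeats (GAUC in RNA), and because the 3 pseudogene rows with most counts are near copies of the same sequence. Letters are from the GENCODE release 29 transcripts on GRCh38, positions 1 to 120 of each transcript, with T for U, and capitals mark GATC. RN7SK lies on the forward strand and this window spans chr6:52995620-52995739. RN7SKP80 lies on the reverse strand (chr22:42565211-42565330), as does RN7SKP124 (chr3:139584326-139584445), and RN7SKP25 on the forward strand (chr3:142673597-142673716).
RN7SK: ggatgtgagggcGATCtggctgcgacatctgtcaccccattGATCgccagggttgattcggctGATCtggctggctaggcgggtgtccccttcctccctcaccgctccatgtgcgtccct
RN7SKP80: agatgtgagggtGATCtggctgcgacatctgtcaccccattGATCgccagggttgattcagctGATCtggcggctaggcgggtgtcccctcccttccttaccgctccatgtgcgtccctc
RN7SKP124: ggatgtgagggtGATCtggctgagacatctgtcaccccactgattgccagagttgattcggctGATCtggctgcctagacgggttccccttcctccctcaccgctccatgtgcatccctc
RN7SKP25: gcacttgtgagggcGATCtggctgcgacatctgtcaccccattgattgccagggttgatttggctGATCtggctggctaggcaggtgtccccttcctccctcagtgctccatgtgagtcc

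The RN7SK transcript of 331 bases held GATC 3 times, starting at bases 13, 42 and 64. GATC reads the same on both strands, and it was the only motif searched. RN7SKP80 held it at the same 3 starts, whereas RN7SKP124 and RN7SKP25 held it 2 times each and lacked the middle copy. Of 190374 annotated transcripts at least as long as RN7SK, 60.5% held GATC at least once in their first 331 bases and 7.42% held it 3 times or more. A match is a description of the letters and says nothing about binding in these cells.

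RN7SK (ENSG00000202198, chromosome 6, 52995620 to 52995950) stood near the top of all genes in every library. Release 29 also holds a second model over 328 of its bases, which has no row in the table. Its row held 798699.9, 1241338, 1095985 and 964207 counts in replicates 1 to 4. It therefore took 2.02% of all counts in replicate 1 (Wilson 95% interval 2.02% to 2.03%), 2.84% in replicate 2 (2.83% to 2.84%), 2.39% in replicate 3 (2.39% to 2.40%) and 2.34% in replicate 4 (2.33% to 2.34%). The 9 partners together took 0.0567% to 0.0623%. Scaled to CPM (counts scaled to the effective library size), RN7SK had 19755, 29476, 24195 and 22808. Replicate 2 was the high library and replicate 1 the low one, 1.49 times apart, with replicates 3 and 4 close to each other between them. The mean was 24059 ± 4059.9 CPM (SD, n = 4). In bulk RNA, a difference in the share of cells making a transcript and one in the amount per cell cannot be told apart.

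By CPM RN7SK ranked 2 of all rows in each of the 4 libraries, below RN7SL1, an RNA of the signal recognition particle. Per kilobase of exon it stood at 72685 ± 12265.5 CPM (SD, n = 4) and ranked 2 in 3 libraries and 3 in replicate 3. Every one of 11566 protein-coding genes detected in all libraries lay below it on both scales. Among 7058 genes averaging at least 1000 counts, 100 (1.42%) had a wider range between libraries than RN7SK. Since RN7SK was picked for its counts and its spread in these libraries, these places describe it and test nothing. The plot of CPM by gene and library shows the distance between the RNA and its partners.

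**Figure D1:**
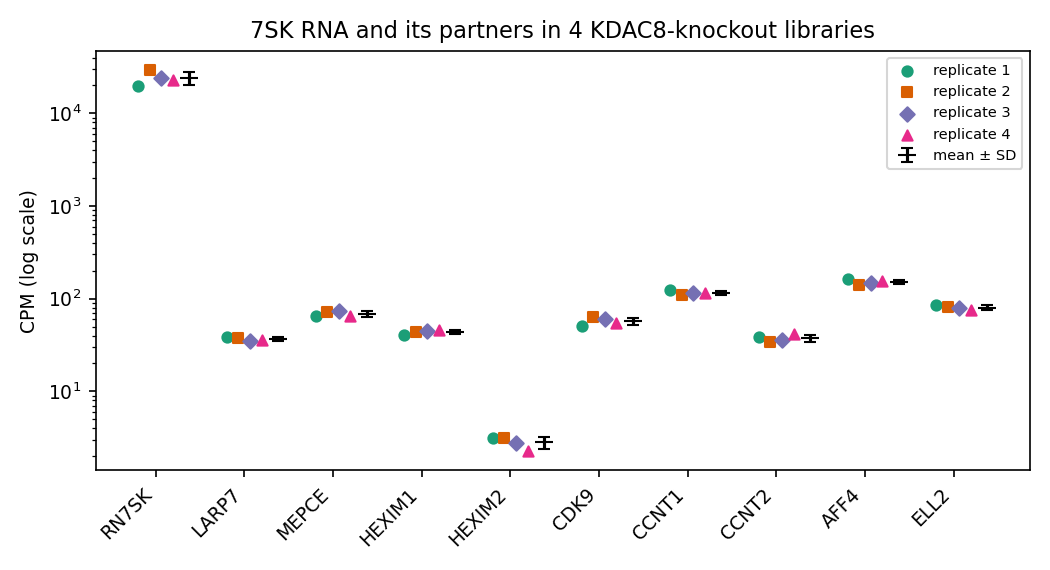
CPM on a log axis for RN7SK and the 9 protein partners, with 1 point per library and the mean ± SD in black. RN7SK lies at 19755 to 29476 CPM in the 4 libraries, while the partner with the highest CPM, AFF4, lies at 142 to 164 CPM and HEXIM2, the lowest, at 2.25 to 3.13 CPM.

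The human genome carries many copies of the 7SK sequence, so it was examined how far reads had been given to them. The table held 299 rows of 7SK pseudogenes, of which 245 were at 0 in every library, 54 had at least 1 count in all, and 8 had a mean of 10 or more counts. All of these rows together held 424, 525, 478 and 535 counts in replicates 1 to 4. RN7SK thus held 99.947% of 7SK-like counts in replicate 1 (Wilson 95% interval 99.942% to 99.952%), and 99.958%, 99.956% and 99.945% in replicates 2 to 4.

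The 3 highest pseudogene rows, RN7SKP80, RN7SKP124 and RN7SKP25, held 67.2% of the mean pseudogene counts. RN7SKP80 had 127, 185, 152 and 170 counts in replicates 1 to 4, low in replicate 1 and high in replicate 2 as RN7SK was. RN7SKP124 had 95.05, 104.8, 108 and 86.03 counts, with replicate 4 the low one. RN7SKP25 had 56.8, 81.0, 62.7 and 88.0 counts, with replicate 4 the high one. RN7SKP80 was 96.3% identical to RN7SK over its aligned part, against 92.1% for RN7SKP124 and 93.0% for RN7SKP25. Whether the reads in these rows come from the copies or from RN7SK was not tested. No pseudogene shared an exact run of 150 bases, the labelled read length, with RN7SK. The longest such run was 145 bases, in RN7SKP71, and the median over the 299 was 23 bases. With all pseudogene rows added, the mean level of 7SK-like RNA was 24070.3 CPM.

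Among the proteins of the 7SK particle, MEPCE stood above LARP7 per length in every library, and HEXIM2 was far lower. HEXIM1 was 1.36 times LARP7 per kilobase of exon but 0.776 times with longest-transcript lengths, so the direction depends on the length used. LARP7 (chromosome 4, 112636964 to 112657592), which protects the 3′ end of the RNA, had 38.1, 37.7, 34.7 and 35.6 CPM in replicates 1 to 4. The libraries differed little, with replicate 1 high and replicate 3 low, 1.10 times apart. MEPCE (chromosome 7, 100428790 to 100434126), the capping enzyme, had 64.4, 72.3, 73.6 and 64.6 CPM. Replicates 2 and 3 lay above replicates 1 and 4, which were nearly equal. On the scale of CPM per kilobase of exon MEPCE stood at 20.1 ± 1.43 CPM and LARP7 at 8.95 ± 0.406 CPM (SD, n = 4), and the ratio of MEPCE to LARP7 on that scale was 2.02, 2.29, 2.53 and 2.16 in replicates 1 to 4. With the longest annotated transcript as the length in place of all exons joined, the mean ratio was 1.45.

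HEXIM1 and HEXIM2, the paralogous inhibitors of CDK9, are neighbours on chromosome 17, 45148502 to 45152101 and 45160700 to 45170040, separated by 8598 bases. HEXIM1 had 40.7, 43.5, 44.9 and 45.3 CPM in replicates 1 to 4, with replicate 1 low and the others close. HEXIM2 had 3.12, 3.13, 2.78 and 2.25 CPM from 126, 132, 126 and 94.5 counts, with replicate 4 low. The ranges of the paralogs over the libraries did not overlap. Per kilobase of exon HEXIM1 exceeded HEXIM2 by 7.39, 7.89, 9.13 and 11.5 times, and HEXIM2 made up 10.3% ± 1.71 of the summed HEXIM level (SD, n = 4). HEXIM2 shares 1026 of its 2038 exonic bases with an antisense gene whose row had a mean of 5.44 counts. HEXIM1 shares 520 of its 3600 with an antisense gene whose row had 0 counts. Whether reads were counted by strand is not given in the sources used here, so HEXIM2 is the less certain of the pair. The same limit holds for LARP7, which shares 32 exonic bases with the antisense ZGRF1 (mean 1105.5 counts), MEPCE, which shares 203 with ZCWPW1 (30.75), and CCNT2, which shares 148 with CCNT2-AS1 (15.25).

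CCNT1 lay below CDK9 per length in every library, and CCNT2 lay below CCNT1. CDK9 (chromosome 9, 127785679 to 127790787) had 51.3, 62.9, 59.6 and 54.5 CPM in replicates 1 to 4. Replicate 2 was high and replicate 1 low, which is also how RN7SK was ordered. CCNT1 (chromosome 12, 48688458 to 48716998) had 123, 111, 114 and 114 CPM, with replicate 1 above the other libraries, which were close. CCNT2 (chromosome 2, 134918235 to 134959342) had 39.0, 34.0, 36.2 and 41.6 CPM, with replicate 4 high and replicate 2 low.

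Per kilobase of exon CCNT1 was 0.973, 0.715, 0.775 and 0.852 times CDK9 in replicates 1 to 4, below it in all 4 libraries. CCNT2 made up 21.0% ± 1.28 of the summed cyclin T level on that scale (SD, n = 4). The sum of the cyclins was 1.05 ± 0.145 times CDK9, and the sum of HEXIM1 and HEXIM2 was 0.713 ± 0.0495 times CDK9 (SD, n = 4). By library the cyclin sum was 1.22, 0.894, 0.976 and 1.10 times CDK9, so it lay on both sides of it. HEXIM1 alone was 0.661, 0.577, 0.628 and 0.693 times CDK9. With longest-transcript lengths the mean ratio to CDK9 was 0.720 for CCNT1, 0.238 for CCNT2 and 0.525 for HEXIM1. The sums and shares therefore depend on the length used. These are ratios of transcripts, which do not give the ratios of the proteins.

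In the super elongation complex, AFF4 exceeded its paralog AFF1 per length and ELL2 exceeded its paralog ELL. AFF4 (chromosome 5, 132875379 to 132963634) had 164, 142, 147 and 153 CPM in replicates 1 to 4, with replicate 1 high and replicate 2 low. ELL2 (chromosome 5, 95885098 to 95962071) had 85.1, 82.1, 78.3 and 75.2 CPM, with replicate 1 high and replicate 4 low. Divided by exon length, AFF4 was 1.81 ± 0.0652 times AFF1 and ELL2 was 2.12 ± 0.222 times ELL (SD, n = 4), higher in 4 of 4 libraries in both cases. ELL3, the remaining paralog, had a mean of 0.831 CPM. AFF4 was 1.23 ± 0.0839 times ELL2 per kilobase of exon.

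Ordered by CPM per kilobase of exon, the partners ran MEPCE (20.1), CDK9 (19.0), CCNT1 (15.6), AFF4 (13.4), HEXIM1 (12.1), ELL2 (10.9), LARP7 (8.95), CCNT2 (4.15) and HEXIM2 (1.38). The difference between HEXIM1 and ELL2 had the same sign in only 3 of 4 libraries, so they were not told apart. MEPCE exceeded CDK9 in each library, although their ranges over libraries overlapped, and the same held for AFF4 over HEXIM1. Every other pair of neighbours had ranges that did not overlap. The order rests on the annotated lengths. With the longest transcript as the length, CDK9 came before MEPCE and HEXIM1 moved from place 5 to place 7, below LARP7 and ELL2, and 5 of the 9 partners kept their place. In CPM alone AFF4 came first and 1 of 9, HEXIM2, kept its place. Among detected protein-coding genes, 83.6% lay below MEPCE per kilobase of exon, 82.4% below CDK9, 71.0% below HEXIM1, 61.5% below LARP7, 37.3% below CCNT2 and 14.6% below HEXIM2.

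**Figure D2:**
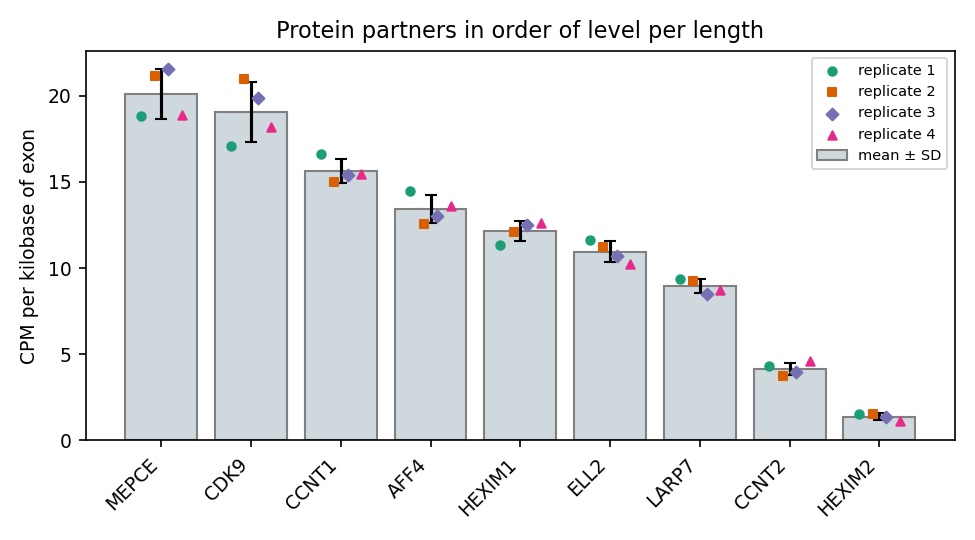
CPM per kilobase of exon for the 9 protein partners, with bars for the mean, error bars for the SD over 4 libraries and 1 point per library. The bars fall from MEPCE at 20.1 and CDK9 at 19.0 to CCNT2 at 4.15 and HEXIM2 at 1.38, and the points of HEXIM1 and ELL2 overlap.

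Within each library the RNA was set against each protein partner, a ratio that no scaling between libraries can change. For each HEXIM1 count there were 485, 677, 539 and 503 RN7SK counts in replicates 1 to 4. For each LARP7 count there were 518, 781, 698 and 639.8, and for each MEPCE count 307, 408, 329 and 353. The ratio to CDK9 was 385, 468, 406 and 419, and that to AFF4 was 121, 208, 165 and 149. Replicate 1 gave the lowest ratio for 9 of 9 partners and replicate 2 the highest for 8 of 9. The 9 ratios share the RN7SK counts, which were lowest in CPM in replicate 1 and highest in replicate 2 and spread more widely than those of each partner, so this tally largely restates the profile of RN7SK. The exception was HEXIM2, with 6335, 9438, 8689 and 10201 RN7SK counts per count, where replicate 4 was highest.

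The spread of this ratio was not the same for each partner. Its highest library exceeded its lowest 1.22 times for CDK9, 1.33 times for MEPCE and 1.39 times for HEXIM1. The factor was 1.51 for LARP7, 1.55 for ELL2, 1.61 for HEXIM2, 1.65 for CCNT1, 1.71 for CCNT2 and 1.72 for AFF4. For these last 6 partners it was wider than the 1.49 times of RN7SK alone. The share of all genes with so wide a ratio to RN7SK was not computed. The count of 6 therefore sets these partners apart from neither other genes nor the remaining partners. Per kilobase of exon the log2 ratio of RN7SK was 11.81 to MEPCE, 11.89 to CDK9, 12.17 to CCNT1, 12.39 to AFF4, 12.54 to HEXIM1, 12.68 to ELL2, 12.97 to LARP7, 14.08 to CCNT2 and 15.68 to HEXIM2. Short structural RNA and long mRNA can be caught at different rates when a library is made, which was not tested, so these are ratios of reads and not of molecules in the cell.

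**Figure D3:**
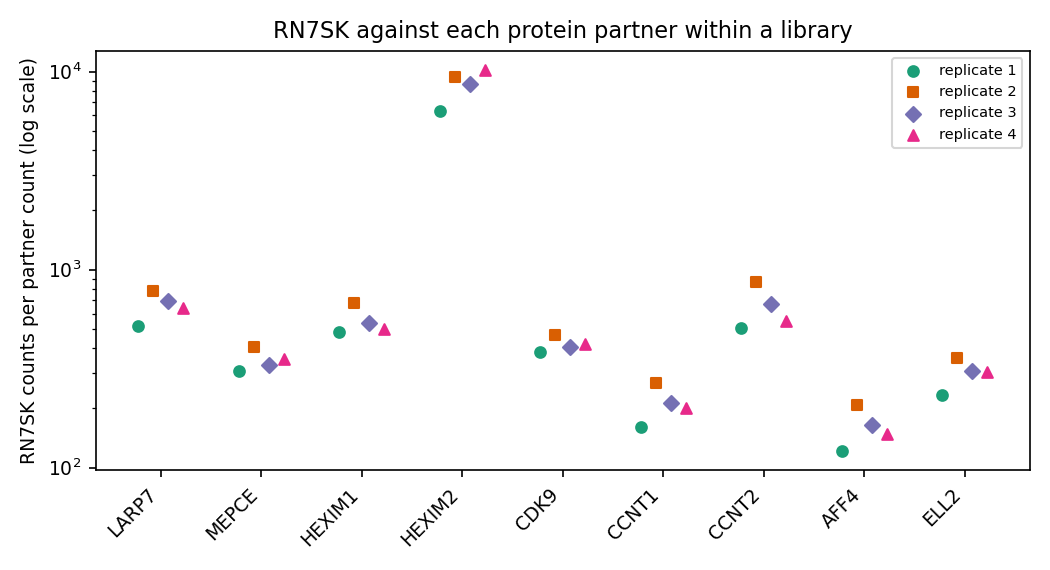
RN7SK counts per count of each protein partner on a log axis, with 1 point per library. Replicate 1 is the lowest point for all 9 partners and replicate 2 the highest for all but HEXIM2, and the points of CDK9 lie closest together, from 385 to 468.

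Variation between libraries was tested for the partners with a chi-square test of homogeneity, adjusted by Benjamini-Hochberg over the 16790 genes tested. Of 9 partners, 8 varied beyond counting noise, against 59.2% of all genes tested. Among genes averaging at least 1000 counts the share was 84.5%, and 8 of the 8 partners in that range varied, so the count lies near its background. The adjusted p was 2.2e-14 for AFF4, 7.4e-12 for CDK9, 6.2e-09 for MEPCE, 2.3e-07 for CCNT2, 6.4e-06 for ELL2 and 9.0e-06 for CCNT1. It was 0.012 for HEXIM1 and 0.038 for LARP7. For HEXIM2, with 94.5 to 132 counts a library, no variation beyond counting was detectable at this depth (adjusted p = 0.083). Without replicate 1 the number fell to 5, as the calls of LARP7 (adjusted p = 0.093), HEXIM1 (0.53) and CCNT1 (0.35) were lost. The number of varying genes in all fell as well, from 9944 to 8335. Without replicate 3 LARP7 (0.069) and HEXIM1 (0.053) were lost and HEXIM2 passed (0.029), and 9376 genes varied in all.

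The ranges behind these calls were small. The median range of the partners was 1.14 times, and that of genes averaging at least 1000 counts was also 1.14 times. Among the 8 partners averaging at least 1000 counts, 2 had a range of 1.2 times or more (CDK9 1.23 and CCNT2 1.22), against 25.5% of genes in that count range, so the share lies near its background. None of the 9 partners reached 1.5 times, against 1.33% of those genes. HEXIM2, at 1.39 times, lies below that count range. RN7SK, at 1.49 times, had a wider range than each of its 9 partners.

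CDK9 was the 1 partner of 9 that had the libraries in the same order as RN7SK. This order was shared by 10.4% of all genes detected, so the count lies near its background. Its deviations from its own mean log2 CPM were -0.15, 0.15, 0.07 and -0.06 in replicates 1 to 4, against -0.27, 0.31, 0.02 and -0.06 for RN7SK. AFF4 was high in replicate 1 and low in replicate 2, with 0.11, -0.09, -0.04 and 0.02, and so was CCNT1, with 0.09, -0.06, -0.02 and -0.01.

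Base composition and length moved with these deviations. Over 9209 protein-coding genes averaging at least 10 CPM, the rank correlation of the deviation with GC content was -0.76 in replicate 1, 0.29 in replicate 2, 0.63 in replicate 3 and -0.04 in replicate 4. With exonic length it was 0.28, -0.53, -0.22 and 0.51. The points are genes of the same libraries and are not independent. The longest transcripts of LARP7, CCNT1, CCNT2, AFF4 and ELL2 have 37.0% to 41.1% GC, below the median of 47.3%, and 5 of these 5 lay above their own mean in replicate 1, as did 82.2% of all genes below the median. HEXIM1 (48.2%), CDK9 (55.1%), HEXIM2 (60.9%) and MEPCE (61.7%) lie above it. Of these 4, only HEXIM2 lay above its own mean in replicate 1, against 17.8% of all genes at or above the median. In replicates 2, 3 and 4 the low-GC partners above their own mean were 2, 0 and 2 of 5, against 50.3%, 31.9% and 35.4% of genes below the median. CCNT1, CCNT2, AFF4 and ELL2 also lie at or above the median exonic length. In replicate 1, 4 of these 4 lay above their own mean, against 60.2% of such genes. Low GC and long exons therefore cannot be told apart in these 4. RN7SK has 58.0% GC in 331 bases, against a median exonic length of 5509 bases for those genes. What part GC content and length have in the spread of RN7SK and of its partners was not tested.

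**Figure D4:**
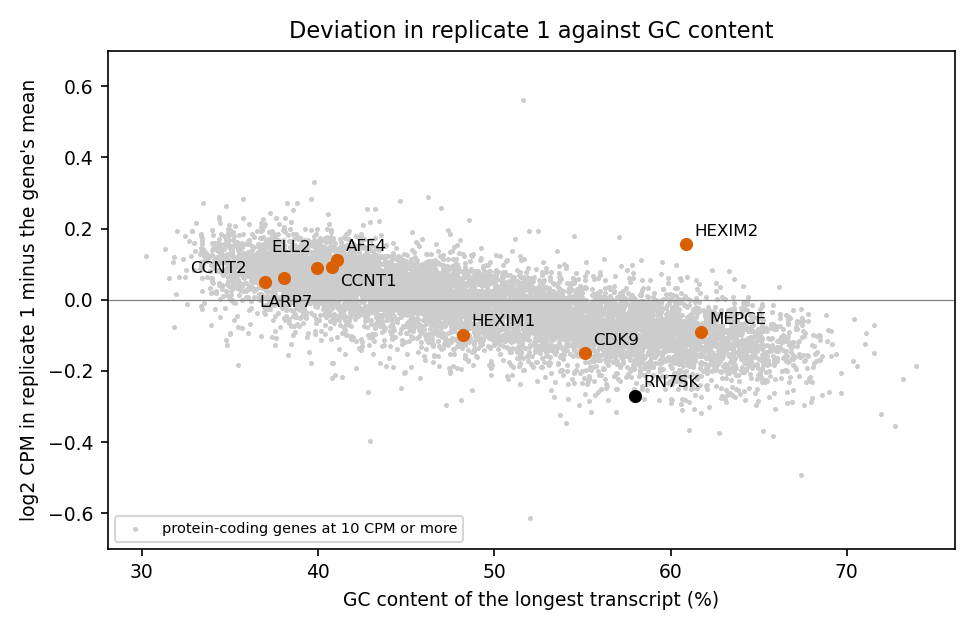
Deviation of log2 CPM in replicate 1 from each gene's own mean, against the GC content of its longest transcript, for 9209 protein-coding genes (grey), RN7SK (black) and its 9 partners (orange). The 5 partners with 37.0% to 41.1% GC lie above 0, and RN7SK, CDK9, MEPCE and HEXIM1 lie below it, while HEXIM2 lies above.

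The genes with the profile nearest to that of RN7SK were sought over the 4 libraries. Likeness was the Euclidean distance between deviations of log2 CPM over 4 libraries, among 9471 genes averaging at least 10 CPM, with the members left out. The nearest 5 were NUDT22 (0.044), ABHD11 (0.045), FAAP20 (0.049), MRPL34 (0.056) and C4orf48 (0.058). Their longest transcripts had 55.2% to 73.2% GC, and the share of the 9471 genes in that range was not computed. Their exonic lengths ran from 540 (C4orf48) to 10916 bases (FAAP20), against 331 for RN7SK. NUDT22 had 17.04, 25.2, 21.5 and 19.9 CPM in replicates 1 to 4, low in replicate 1 and high in replicate 2. Of the partners CDK9 was nearest, at 0.21, with 6.45% of those genes nearer to RN7SK than it was. CCNT2 was farthest at 0.60, with 93.9% nearer. For the other partners this share ran from 21.6% (MEPCE) and 37.4% (HEXIM1) to 80.5% (CCNT1) and 89.8% (AFF4). The 9 partners thus spread over most of the range, and CDK9 is named only as the nearest of 9. The 5 nearest genes stood far below RN7SK in level, at 12.0 to 28.6 CPM on average.

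Other structural RNAs had RN7SK's low and high libraries in most cases. Of 24 with a row, 10 were detected, and 8 of these 10 had replicate 1 as their lowest and replicate 2 as their highest library, like RN7SK, against 12.6% of all genes detected. Of those 12978 genes 11566 were protein-coding, whereas the 10 rows have 204 to 699 annotated bases, so the background is unlike them in length. The rows are also not all independent, as SNORA73A and SNORA73B are neighbours on chromosome 1 (starts 28507366 and 28508559). RN7SK per RN7SL1 count was 0.868, 0.792, 0.780 and 0.896 in replicates 1 to 4, a range of 1.15 times. Per count of RPPH1, the RNA of ribonuclease P, it was 2.74, 2.24, 2.62 and 3.02, so RPPH1 was high in replicate 2 beyond RN7SK. Per count of RMRP, the RNA of ribonuclease MRP, it was 6.86, 7.35, 5.93 and 6.36. Both RN7SL1 and RN7SL2, as well as RPPH1 and RMRP, have another row in the table, and the row with more counts was used. SNORA73A, a small nucleolar RNA, had the largest spread of the list, with 21.3, 53.8, 42.0 and 28.2 CPM, and SNORD118 was among the 12 rows at 0 in every library.

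**Figure D5:**
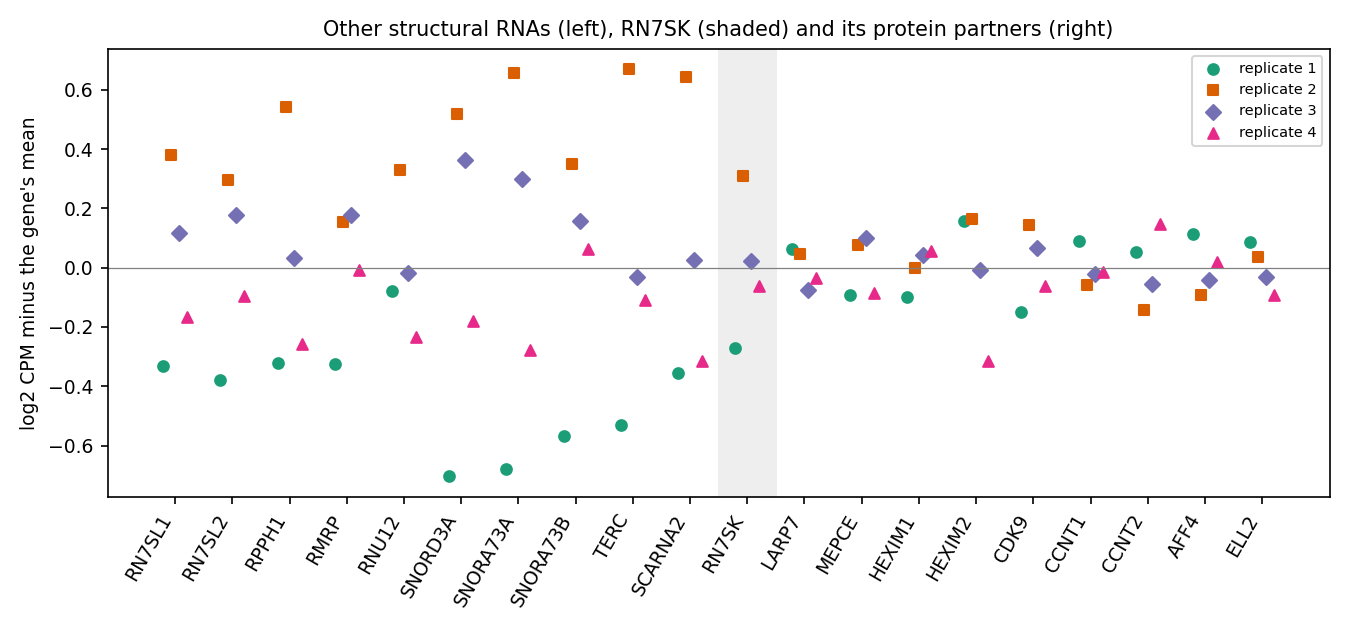
Deviation of log2 CPM from each gene's own mean, with 1 point per library, for 10 detected structural RNAs (left), RN7SK (shaded) and 9 protein partners (right). Replicate 1 lies lowest and replicate 2 highest for RN7SK and for 8 of the 10 structural RNAs, while CDK9 is the 1 partner of 9 with both. Of all genes detected, most of them protein-coding, 12.6% had both.

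Genes for proteins that stabilise 7SK RNA outside the core particle included some with high levels. Among 6 such genes, HNRNPA1 had 1166 ± 53.1 CPM and HNRNPA2B1 had 621 ± 24.5 CPM (SD, n = 4), both RNA-binding proteins that hold 7SK RNA once P-TEFb has left. SSB, the La protein, had 92.1 ± 4.98 CPM and was the lowest and the most variable. Per kilobase of exon the median of the list was 53.7 CPM, against 20.1 for MEPCE, the highest core partner on that scale. In this list 6 of 6 genes varied between libraries beyond counting noise. All 6 averaged at least 1000 counts, a range in which 84.5% of genes varied, so the count lies near its background.

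Among 7 further subunits of the super elongation complex, AFF1 had 79.6 ± 5.44 CPM and MLLT1, a reader of acetylated histones, 76.8 ± 2.08 CPM (SD, n = 4). ELL was the most variable at 25.6 ± 2.63 CPM, and EAF2 the lowest at 0.722 ± 0.152 CPM. Of the 7, 5 were detected and 5 varied, against 59.2% of all genes tested, and of the 4 averaging at least 1000 counts 3 varied, against 84.5%. The list of 10 genes that release or recruit P-TEFb was led by TRIM28 (637 ± 38.9 CPM) and the helicase DDX21 (516 ± 15.9 CPM), and its lowest member was JMJD6 (23.7 ± 1.83 CPM). PPP1CA, a catalytic subunit of protein phosphatase 1, was its most variable member, with 103, 141, 118 and 101 CPM in replicates 1 to 4. All 10 averaged at least 1000 counts and all 10 varied, near the 84.5% of genes in that range.

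The pausing factors on which P-TEFb acts were all detected. All 6 averaged at least 1000 counts and all 6 varied, near the 84.5% of genes in that range. SUPT5H, the large DSIF subunit, had 115, 132, 133 and 123 CPM in replicates 1 to 4. NELFE had 72.7, 92.7, 82.0 and 68.8 CPM and was the most variable, high in replicate 2. NELFA was the lowest at 30.7 ± 3.03 CPM (SD, n = 4). Of the 6 genes, 5 were highest in replicate 2, as were 36.9% of genes averaging at least 1000 counts. Over 9209 genes, deviations in replicate 2 fell with exonic length (rank correlation -0.53) and rose with GC content (0.29). They fell with length in replicate 3 as well (-0.22). Of the 5 genes, NELFA (5935 bases) and NELFCD (6298 bases) exceed the median exonic length of 5509 bases, and the others lie below it. What part length or GC content has in the count was not tested. Among 10 other elongation kinases and factors, SUPT6H (142 ± 9.20 CPM) and CDK12 (123 ± 7.50 CPM) were highest, LEO1 (28.2 ± 0.542 CPM) lowest and SKIC8 (35.2 ± 3.27 CPM) most variable. All 10 averaged at least 1000 counts and 7 varied, against 84.5% of genes in that range.

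The machinery that transcribes RN7SK was detected throughout. Of 10 genes for the SNAPc complex and other factors at the 7SK promoter, all were detected and 5 varied, and of 11 RNA polymerase III subunits, all were detected and 5 varied, against 59.2% of all genes tested. Among those averaging at least 1000 counts, 4 of 5 and 4 of 8 varied, against 84.5%. BDP1 (98.3 ± 6.71 CPM) and SNAPC1 (61.4 ± 7.31 CPM) were highest in the promoter list and BRF2, the initiation factor for such promoters, lowest at 6.26 ± 0.353 CPM (SD, n = 4). SNAPC2 was its most variable member, with 20.5, 25.8, 23.9 and 16.5 CPM in replicates 1 to 4. POLR3A, the largest subunit, had 84.7, 82.7, 86.0 and 87.9 CPM, with no variation beyond counting noise detectable (chi-square test, adjusted p = 0.095). POLR3E followed at 65.6 ± 3.598 CPM, POLR3GL was the lowest at 5.47 ± 0.546 CPM, and POLR3K the most variable, with 13.6, 17.8, 16.999 and 14.03 CPM.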

How the data were processed

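RSEM 1.3.3, Bowtie2 2.5.4, DESeq2 1.46.0, Trimmomatic 0.39 and the build GRCh38 are named, without roles, per the submitters' processing notes. The sources used here give no annotation release, strand setting or filter. The authors deposited expected counts per Ensembl gene for 4 libraries, not scaled between libraries, a unit read from the values. Such counts can share a read among similar genes. All sample columns were used (0 left out).

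Counts were rounded and scaled to CPM with TMM effective library sizes (edgeR 4.0.16, factors 0.963 to 1.03). Detected means 1 CPM or more in all 4 libraries. Homogeneity over libraries was tested per gene (chi-square, 3 degrees of freedom, scipy 1.17.1) where counts averaged at least 10, and p-values were adjusted by Benjamini-Hochberg (threshold 0.05). In simulated Poisson counts over 16790 genes it called 64.0% of 1.2-fold, 68.0% of 1.5-fold, 90.0% of 2-fold and 94.0% of 4-fold changes in 1 library, and 9 of 16590 unchanged genes. The simulation held counting noise alone, so few calls among unchanged genes were built in. The libraries themselves varied beyond counting (common coefficient of variation 0.092, edgeR), so these rates do not carry over to them. Lengths, positions and GC came from GENCODE release 29, which holds 94.0% of the IDs. Exonic length joins all annotated exons. Intervals cover counting error only, since amplified reads are not independent. DESeq2 1.42.0 size factors, total counts, TMM without structural RNAs, other count minimums, other lengths and leaving out each library were alternatives.

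Members, lists and tests were chosen with earlier results of these data known. Named were the members, in each list the 2 highest, the lowest and the most variable gene, the 5 nearest profiles and the 3 highest pseudogene rows. Markers were given by count, with CLDN4 and THY1 named because they differed from the rest of their lists. Of 85 listed genes, 84 had a row.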

Additional observations from a re-analysis of the deposited data

How the results depend on the processing

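The RN7SK level (22530.1 to 26348 CPM over all alternatives) moved by less than 1 SD under every alternative run. The count of genes varying (7786 to 10381) moved by less than 1.5 times, but the number of genes tested changed with the filter. It was 9944 of 16790 in the main run, 10381 of 29800 without a filter, and 9022 of 13179 at a mean of 50 or more counts. The share of 59.2% in the main run thus depends on the filter. Leaving out 1 library at a time, the number of varying partners was 5 to 8 and the RN7SK range 1.22 to 1.49 times, lowest without replicate 2. Over all genes the number varying in these runs was 7786 to 9376, against 9944 with all 4 libraries. It was 8335 without replicate 1, the run with 5 varying partners. Without a filter on low counts 7 of 9 partners varied in the chi-square test, against 10381 of 29800 genes. LARP7 was the call lost (adjusted p = 0.060). With TMM sizes that leave out structural RNAs 7 of 9 varied, HEXIM1 being lost (adjusted p = 0.069), while 9997 genes varied in all. The median log2 ratio of RN7SK to the partners per kilobase was 12.53, and 12.20 with longest-transcript lengths, which are shorter. Of the 9 partners in order per length, 5 kept their place with those lengths and 1 in CPM, while leaving out any 1 library kept all 9. No paired analysis was possible because the labels give 1 group. HEXIM2 is limited by depth, at 94.5 to 132 counts a library.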

Other observations

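The listed structural RNAs split by annotated transcript length in this table. These are lengths of the annotated models (664 bases for RNU12), not measured lengths of the RNAs. The 10 that were detected have a longest annotated transcript of 204 bases or more, and the 14 that were not detected have one of 191 bases or fewer. The listed rows for the U4, U5, U6 and Y RNAs, which every cell uses, were among the 12 at 0 in every library. Any other rows for these RNAs were not examined. A 0 in a row of this table thus does not show that a short RNA is not made. RN7SK, at 331 bases, lies on the detected side.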
